A study of Mus musculus with 200 samples.

Results

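A backcross embryo that is heterozygous at a gene carries 1 C57BL6/J (B6) and 1 Castaneus (Cast) allele, and the design fixes which parent each allele came from. The comparison described here is between heterozygous N2 embryos that received Cast from the father and those that received Cast from the mother. For each autosomal gene, the B6 allele fraction (BAF) is the B6 share of allele votes, where a vote is a read, or a fraction of a read, that matches one strain at a SNP. BAF was taken over the N2 embryos coded heterozygous at that gene, and a gene was a member if at least 100 votes were counted on each side. This gave 6325 genes of the 21044 autosomal genes among the 22033 genes in the tables.

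Whole mouse embryos collected at embryonic day 11.5 were profiled one by one with 3SEQ, an RNA sequencing method that reads the 3′ ends of polyadenylated transcripts. In the N2 cross B6 × F1 (mother named first), 89 embryos of 17 litters had a B6 mother and an F1 father, and any Cast allele was paternal. In F1 × B6, 65 embryos of 12 litters had an F1 mother and a B6 father, and any Cast allele was maternal. All F1 parents came from B6 mothers and Cast fathers, so every N2 embryo had B6 mitochondria, and the labels name no treatment. The reciprocal F1 crosses, B6 × Cast and Cast × B6, gave 8 embryos of 2 litters each, all heterozygous at every autosomal gene, and served as the comparison. A whole embryo mixes tissues, so an allele silent in some of its cells and an allele read weakly in all of them cannot be told apart.

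Genomic imprinting marks a gene in the egg or the sperm so that the embryo reads mainly the copy from one parent. Imprinted genes lie in clusters, in which a control region methylated in one germ line often sets the expression of several genes. In some clusters a long noncoding RNA read from one parental copy keeps protein-coding neighbours silent on that copy. Many of the proteins and RNAs involved act on fetal growth. Where the maternal allele is read, BAF is high with a B6 mother and low with an F1 mother, and where the paternal allele is read it is the reverse. The difference in BAF, B6 mother minus F1 mother, is therefore positive for a maternal and negative for a paternal excess, and a difference of strain alone moves both crosses the same way and cancels.

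N2 libraries held 245220 to 5370320 reads on genes, with medians of 2299800 (B6 mother) and 2269580 (F1 mother), against 15703900 to 38234200 in an F1 embryo. The median member had 729 votes from 40 heterozygous embryos with a B6 mother and 552 votes from 31 with an F1 mother, so a single embryo carries few votes at most genes. Embryos coded B6/B6 gave 0.194% Cast votes over all genes, and whether these were misassigned reads or miscoded genotypes was not tested. The 10 embryo markers were all detected, from *Hbb-y* at a median of 52930 RPM, reads scaled to a common total on genes, to *Pax6* at 1.65. The 10 placenta and decidua markers summed to a median of 0 RPM in both crosses and at most 22.9 RPM in any embryo, with *Prl3d1*, *Prl2c2* and *Ctsq* at 0 throughout. Mothers and sequencing lanes were nearly confounded, since 1 lane of 14 held embryos of both mothers, but both flow cells held both crosses, 30 and 45 embryos on the first and 59 and 20 on the second. In 150 embryos with at least 10 votes at 1 or more of 13 strongly biased genes, all 658 embryo-gene pairs fell on the labelled side of 0.5, although these genes had been picked for their difference between the same crosses, so that this is no independent check of the labels.

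A quasi-binomial test over embryos, with the spread between embryos estimated for each gene, called 32 genes at a Bonferroni-adjusted p under 0.01, which is 0.506% of the 6325 tested. The maternal allele was higher in 12 (0.190% of genes tested) and the paternal allele in 20 (0.316%). Of the 32 genes, 14 differed by at least 0.9 and are called full here, 8 differed by 0.3 to 0.9 (partial), and 10 by less than 0.3 (slight). Every gene that differed by 0.3 or more was called, and no gene that was not called differed by more than 0.283. Over all members the median absolute difference was 0.0224, and 95% of members differed by less than 0.0956. *Snurf* and *Snrpn* are read from the same transcripts and had almost the same votes, so that they count as 1 locus.

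The full class held 3 genes read from the maternal copy. *H19*, a long noncoding RNA that limits growth, lies on chromosome 7 (mm9, from 149761434 to 149764048). Its BAF was 0.998 ± 0.00022 (SE) over 50 embryos with a B6 mother and 0.0047 ± 0.00058 over 29 with an F1 mother. Single embryos ranged from 0.985 to 1.00 around a median of 0.999 in the first cross and from 0.0015 to 0.0456 around 0.0035 in the second, far apart (adjusted p = 6.43e-108). *Cdkn1c*, which encodes an inhibitor of cyclin-dependent kinases, had a BAF of 0.997 ± 0.00085 and 0.0050 ± 0.0010 and lies on the same chromosome. *Meg3*, a long noncoding RNA on chromosome 12 (110779211 to 110809936), had 0.998 ± 0.00069 and 0.0080 ± 0.0015.

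The other 11 full genes were read from the paternal copy. *Igf2*, the fetal growth factor downstream of which *H19* lies (chromosome 7, 149836673 to 149852721), had a BAF of 0.0064 ± 0.0032 over 50 embryos and 0.994 ± 0.0041 over 29. Its single embryos ranged from 0 to 0.333 (median 0) and from 0.941 to 1.00 (median 1.00). *Mest*, a member of the hydrolase fold family on chromosome 6, had 0.0040 ± 0.0011 and 1.00 ± 0.00050. *Peg3*, a zinc finger gene at the other end of chromosome 7, had 0.0138 ± 0.0066 and 0.997 ± 0.0028. The same held for the zinc finger genes *Plagl1* (0 and 0.992) and *Zdbf2* (0.0099 and 0.973), for the retrotransposon-derived *Peg10* (0.0058 and 1.00), and for *Snrpn*, a component of small nuclear ribonucleoproteins (0.0023 and 0.999). The noncoding RNAs *Kcnq1ot1* (0.0040 and 0.999) and *Peg13* (0.0093 and 1.00), each of which overlaps a protein-coding gene, completed the group with *Snurf* and *Sgce*.

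*Sgce*, which encodes epsilon-sarcoglycan and lies head to head with *Peg10* on chromosome 6, was the least complete of the full genes. Its BAF was 0.0178 ± 0.0055 over 41 embryos and 0.970 ± 0.0085 over 32, and single embryos reached 0.222 in the first cross and 0.750 in the second. Embryos coded B6/B6 at *Sgce* gave 1.67% Cast votes with a B6 mother, where a Cast copy would be the one read, and 0 with an F1 mother, and at *Dlk1* 2.45% and 0.0392%. The neighbour *Peg10*, also read from the paternal copy, gave 0 and 0. *Asb4* gave 0.195% and 1.00%, and *Meg3* 0.0629% and 0.149%. Both are read mainly from the maternal copy, so a Cast copy would be read mainly with an F1 mother. They therefore cannot show whether an excess with a B6 mother is shared. Over the 14 full genes the expressed parental allele took a median of 99.6% of votes in a cross and at least 97.0%. In all 14, the embryo ranges of the crosses did not overlap, as in 7 of the 8 partial genes and in 0.332% of all members. The plot of single embryos shows these groups at the ends of the scale and the partial genes between them.

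**Figure D1:**
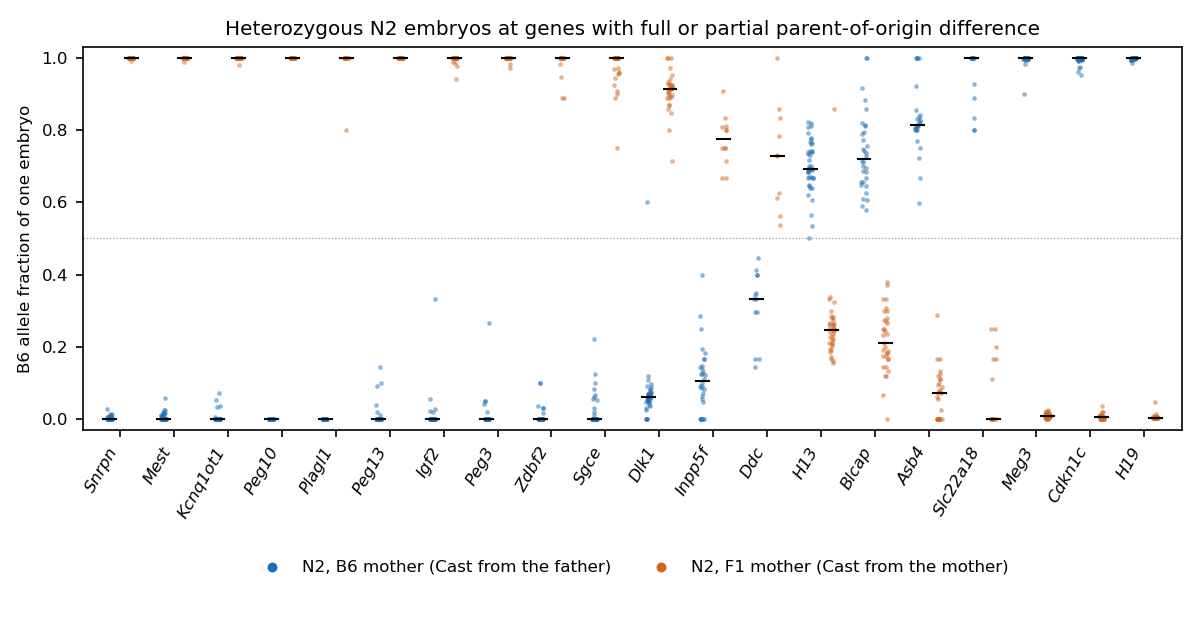
BAF of single heterozygous N2 embryos with at least 5 votes (points) and their median (bar) at 20 genes with a full or partial difference, for embryos with a B6 mother (blue) and an F1 mother (orange); Snurf is left out because it shares the votes of Snrpn. The full genes lie near 0 and 1, while the medians of H13, Blcap and Ddc lie between 0.210 and 0.729.

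The 8 partial genes kept votes from both copies in both crosses. *Dlk1*, a noncanonical ligand of the Notch family on chromosome 12 (110691033 to 110701546), is read mainly from the paternal copy. Its BAF was 0.0629 ± 0.0034 over 43 embryos with a B6 mother and 0.912 ± 0.0056 over 34 with an F1 mother (adjusted p = 1.97e-69). Single embryos ranged from 0 to 0.60 (median 0.061) in the first cross, where 0.60 came from an embryo of 5 votes and the next value was 0.118, and from 0.714 to 1.00 (median 0.914) in the second. *Inpp5f*, an inositol phosphatase gene on chromosome 7, leaned the same way with 0.119 ± 0.0120 and 0.783 ± 0.0300, and its embryo ranges, 0 to 0.400 and 0.667 to 0.909, did not meet. *Ddc*, which encodes aromatic L-amino acid decarboxylase on chromosome 11, had 0.338 ± 0.0243 and 0.689 ± 0.0254, with ranges from 0.143 to 0.447 and from 0.538 to 1.00.

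The other partial genes, 5 in number, leaned to the maternal copy. *Slc22a18*, a transporter gene next to *Cdkn1c*, had a BAF of 0.938 ± 0.0200 and 0.0876 ± 0.0242 from only 145 and 137 votes. *Asb4*, an ankyrin repeat and SOCS box gene on chromosome 6 (5333386 to 5383022), had 0.820 ± 0.0082 over 41 embryos and 0.0674 ± 0.0057 over 32. Its embryos ranged from 0.599 to 1.00 (median 0.815) and from 0 to 0.287 (median 0.071). *Blcap*, which holds the paternally read *Nnat* in an intron (chromosome 2, 157382098 to 157397010), had 0.715 ± 0.0119 and 0.222 ± 0.0127, with ranges from 0.578 to 1.00 and from 0 to 0.378. *H13*, the signal peptide peptidase gene (chromosome 2, 152495197 to 152534406), had 0.699 ± 0.0117 and 0.236 ± 0.0097. The *H13* ranges, 0.5 to 0.823 and 0.156 to 0.857, overlapped through 1 embryo of 7 votes, without which the second ended at 0.337.

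The dispersion, the ratio of the variance between embryos of a cross to that of vote counting alone, was 0.764 to 1.87 for the 8 partial genes, beside a median of 1.19 over all members. In the F1 embryos, where the median gene had 1.48, it was 6.53 for *H13*, 3.34 for *Asb4*, 2.75 for *Inpp5f* and 1.64 for *Dlk1*, and 1.16 for *Slc22a18* and 0.670 for *Blcap*. This ratio can grow with the votes per embryo, so its size is not comparable between N2 and the more deeply read F1. With a B6 mother, *H13* had 2884 votes over 41 N2 embryos and 7218 over 8 F1 embryos. In N2, the share of the higher parental allele differed with its strain at some of these genes. The maternal share of *Asb4* votes was 82% when that allele was B6 and 93.3% when it was Cast, a difference of 11.2 percentage points (SE 0.999). The corresponding maternal shares were 69.9% and 76.4% for *H13* (6.48 points, SE 1.52) and 71.5% and 77.8% for *Blcap* (6.38 points, SE 1.74). In F1, the *Blcap* BAF was 0.769 ± 0.0062 with a B6 mother and 0.289 ± 0.0074 with a Cast mother. Its maternal share was thus larger as Cast in N2 and larger as B6 in F1, and the part of strain was not tested. At *Inpp5f* in N2 the paternal share was 88.1% as Cast and 78.3% as B6, a difference of -9.80 points (SE 3.23). The paternal share of *Dlk1* was 93.7% as Cast and 91.2% as B6, a difference of -2.56 points (SE 0.657). *Ddc* differed by 2.70 points (SE 3.52) and *Slc22a18* by -2.55 points (SE 3.14), within their errors.

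The same contrast in the F1 crosses, B6 mother minus Cast mother, called 36 of 8697 genes (0.414%), 17 with the maternal and 19 with the paternal allele higher. Of the 32 genes called in N2, 30 could be tested in F1, and 22 of them were called there with the same allele higher. All 13 full and all 7 partial genes tested in both generations were called in both, against 2 of the 10 slight genes. The size of the difference was close to that in F1: N2 and F1 were at most 0.0264 apart over the full genes and 0.0284 over the partial genes. *Asb4* differed by 0.753 in N2 and 0.778 in F1, *H13* by 0.464 and 0.438, *Blcap* by 0.493 and 0.480, and *Inpp5f* by 0.664 and 0.693 in favour of the paternal allele. A test of the N2 against the F1 difference called none of these 20 genes, and 20 of all 6175 genes tested in both (0.324%). *Zdbf2* and *Ddc* did not reach 100 votes on each side in the F1 embryos, so no such test could be made.

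**Figure D2:**
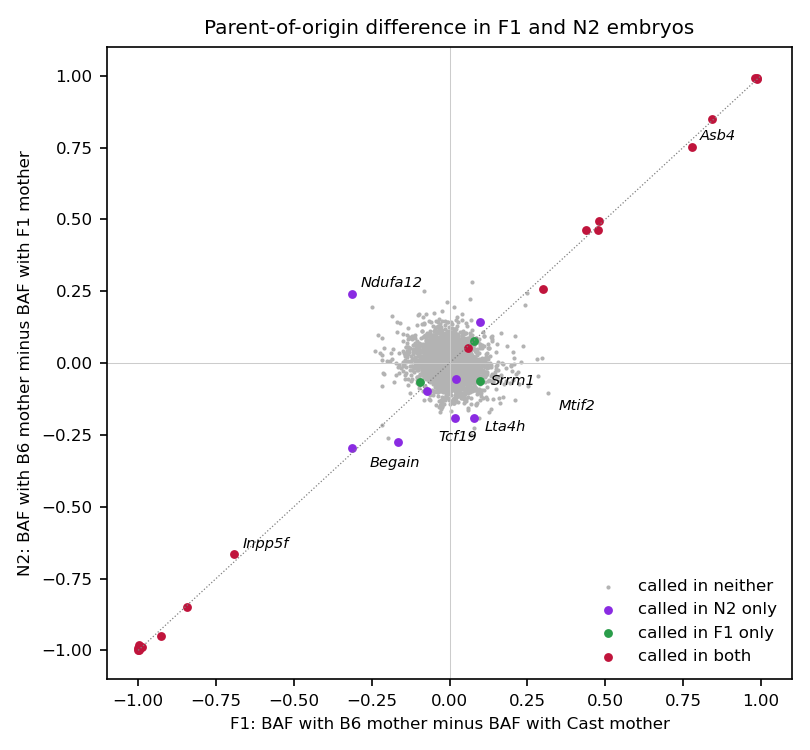
Difference in BAF between crosses in F1 embryos (horizontal) and N2 embryos (vertical) for 6175 genes, coloured by the contrast in which each was called; the dotted line marks equal differences. The full and partial genes lie along the line, at most 0.0284 apart in N2 and F1, and the genes called in neither form a cloud around 0.

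Away from the called genes, differences in the N2 and F1 contrasts did not go together. Over the 6142 genes called in neither, Spearman's rho between them was -0.135 and 45.7% had the same sign, as a description across genes, which are not independent. The value was -0.137 within the first and -0.0958 within the second N2 flow cell. Developmental stage ran in opposite directions: somite numbers averaged 48.4 ± 3.23 (SD, n = 85) with a B6 mother and 49.4 ± 2.53 (n = 62) with an F1 mother in N2, and 52.4 with a B6 mother and 44.3 with a Cast mother in F1. With N2 embryos of 46 to 52 somites only, where the N2 means were 48.65 and 49.5, rho was -0.154. The F1 embryos were not restricted and kept their gap in stage, and the part of stage in rho was not tested. At a Benjamini-Hochberg-adjusted p under 0.05, 83 genes were called in N2 (1.31%) and 117 in F1 (1.35%). The 36 genes called in both were 44.4% of the N2 genes tested in F1 and 37.9% of the F1 genes tested in N2, and 33 of them had the same sign.

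The 10 slight genes fell into 2 kinds. Of these, 5 lie beside stronger genes of a cluster: *Begain* and *Dio3* around *Dlk1* and *Meg3*, *Klhdc10* near *Mest*, *Trappc9* around *Peg13*, and *Sf3b5* near *Plagl1*. *Begain*, a gene for a synaptic scaffold-associated protein, had a BAF of 0.522 ± 0.0190 over 42 embryos and 0.798 ± 0.0165 over 34. *Dio3*, the deiodinase that inactivates thyroid hormone, had 0.270 ± 0.0322 and 0.566 ± 0.0393. Both leaned to the paternal copy, with strain in opposite directions, *Begain* towards B6 and *Dio3* towards Cast. *Klhdc10*, a kelch domain gene, had 0.644 ± 0.0195 and 0.384 ± 0.0257, and *Trappc9*, a subunit of the TRAPP vesicle tethering complex, had 0.579 ± 0.0098 and 0.436 ± 0.0132, both leaning to the maternal copy. None of the 10 slight genes had N2 embryo ranges that stayed apart.

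*Sf3b5*, a subunit of the SF3b splicing complex on chromosome 10 (12728256 to 12728988), showed the smallest called difference. It had 48638 votes over 40 embryos with a B6 mother and 41150 over 34 with an F1 mother, and a BAF of 0.393 ± 0.0037 and 0.342 ± 0.0039. The difference of 0.0518 (SE 0.00541, adjusted p = 1.35e-10) lay on top of a Cast excess in both crosses. Single embryos ranged from 0.305 to 0.464 (median 0.387) and from 0.293 to 0.389 (median 0.346). The F1 crosses gave 0.489 and 0.430, a difference of 0.0590 (SE 0.00578). *Sf3b5* lies 81.5 kb from *Plagl1* on one side, and *Phactr2*, a phosphatase and actin regulator gene, 81.7 kb from it on the other side. *Phactr2* leaned to the maternal copy by 0.242 (SE 0.0484) in N2, with an adjusted p of 0.0343, and by 0.248 (SE 0.0416) in F1.

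The remaining 5 slight genes, *Lta4h*, *Ndufa12*, *Ctdsp2*, *Cdh15* and *Tcf19*, were not in the list of imprinted genes. *Cdh15*, the muscle cadherin gene, had a BAF of 0.357 ± 0.0104 and 0.453 ± 0.0132 in N2 and leaned the same way in F1, with 0.423 and 0.495 (F1 adjusted p = 0.107). At the other 4 the F1 difference had the opposite sign but was itself not called (F1 adjusted p of 0.642 at *Ndufa12* and 1 at the other three), while the test of N2 against F1 called each of them. *Ndufa12*, a subunit of respiratory complex I, had 0.520 ± 0.0369 and 0.278 ± 0.0205 in N2 but 0.104 ± 0.0291 and 0.416 ± 0.0446 in F1. Its N2 embryos ranged from 0.097 to 1.00 (median 0.571) and from 0.030 to 0.674 (median 0.427), with a dispersion of 25.3. *Lta4h*, the leukotriene A4 hydrolase gene on the same chromosome, had 0.248 ± 0.0210 and 0.440 ± 0.0157 in N2 and 0.414 ± 0.0236 and 0.335 ± 0.0269 in F1. *Tcf19* had 0.543 ± 0.0217 and 0.734 ± 0.0258 in N2 and 0.521 and 0.505 in F1, an F1 difference of 0.0164 (SE 0.0128). *Ctdsp2* had 0.422 and 0.477 in N2 and 0.462 and 0.442 in F1, an F1 difference of 0.0196 (SE 0.00655).

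**Figure D3:**
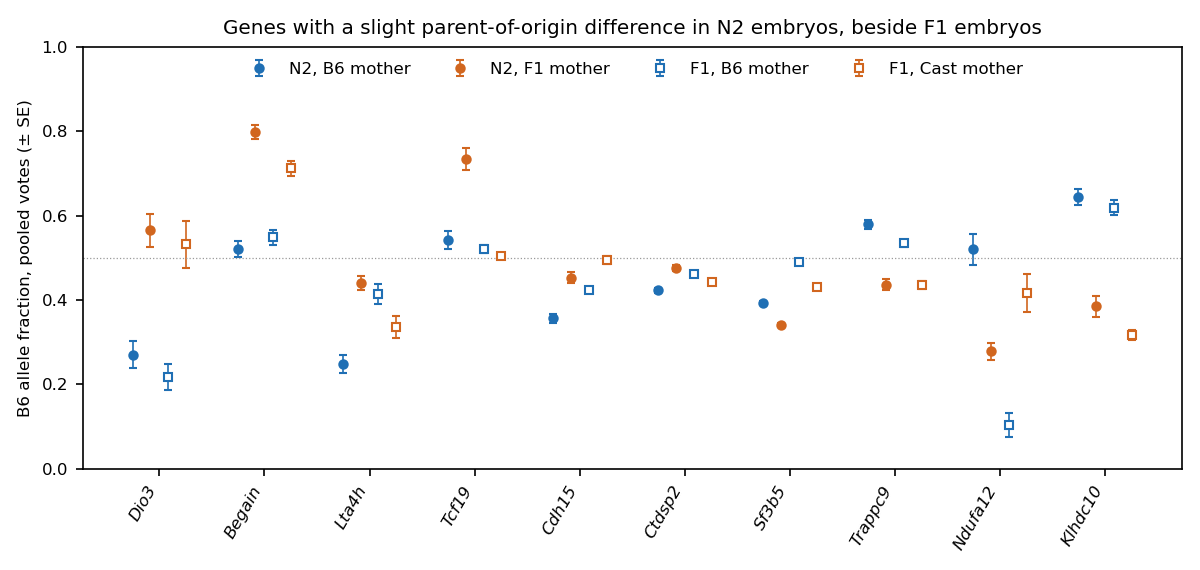
BAF of pooled votes with its standard error at the 10 genes with a slight called difference in N2, for N2 embryos with a B6 mother (filled blue) and an F1 mother (filled orange) and F1 embryos with a B6 mother (open blue) and a Cast mother (open orange). At Lta4h, Ndufa12, Ctdsp2 and Tcf19 the sign of the N2 difference is not that of the F1 difference, which was called at none of these genes and is 0.0164 at Tcf19.

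Total reads of these genes were not tested between crosses, and the cross was nearly confounded with the lane. *Ndufa12* had 113 ± 159 RPM (SD) over all embryos of B6 mothers and 189 ± 161 over those of F1 mothers, and *Lta4h* had 73.1 ± 73.7 and 196 ± 151. *Tcf19* had 77 ± 51.0 and 115 ± 54.3, *Ctdsp2* 311 ± 94.4 and 354 ± 53.7, and *Cdh15* 32.2 ± 11.3 and 27.2 ± 8.27. The part of these levels in the allele differences was not tested. With the litter in place of the embryo as the unit, 27 of the 32 genes stayed called, and *Ctdsp2*, *Dio3*, *Lta4h*, *Ndufa12* and *Tcf19* did not (adjusted p 0.471, 0.0200, 0.0605, 1 and 0.341). *Ndufa12* differed by 0.218 within the first flow cell and by 0.0159 within the second, and *Ctdsp2* by 0.0650 and 0.0154 in favour of the paternal allele.

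Of 95 genes in a list of known imprinted genes and their neighbours, written from textbook knowledge, 37 were members in N2, in 16 clusters. In all, 25 were called, in 14 clusters, each with the allele higher that the list names, and 7 called genes were outside the list. The list was chosen with earlier results of these data known, so the matching direction is no independent check. The *Dlk1*-*Meg3* cluster had 4 of 4 members called, the *Peg10* and *Sgce* cluster 3 of 4, and the *Kcnq1* cluster 3 of 9. The 12 members that were not called differed by 0.00276 to 0.260, and 8 of them leaned to the listed allele. The largest of these were *Adam23* near *Zdbf2*, at 0.423 and 0.682 (difference -0.26, SE 0.0600, adjusted p = 0.559), *Phactr2*, and *Osbpl5* in the *Kcnq1* cluster, at 0.596 and 0.445. *Chrac1* beside *Trappc9* had 0.584 and 0.5. *Tspan32*, also in the *Kcnq1* cluster, had 0.389 and 0.459, a difference of -0.07 (SE 0.0354) against the listed allele that was not called. *Nap1l4*, *Tssc4*, *Cd81*, *Th*, *Pon2*, *Phf17* and *Dcn* differed by less than 0.05.

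In F1, 11 genes were called that had fewer than 100 votes on a side in N2 and were not members. *Ndn*, a MAGE family gene, had 6 and 1 votes in N2, and *Peg12*, its neighbour, 228 and 43. All N2 votes for *Peg12* were Cast with a B6 mother and B6 with an F1 mother, and the F1 BAF was 0.0163 ± 0.0114 and 0.991 ± 0.0060. *Mcts2*, a retrogene inside *H13*, was read from the paternal copy in all of its 60 and 67 N2 votes, opposite to its host gene. *Grb10*, a growth-limiting adaptor, showed only the maternal allele in 50 and 50 votes, and *Rian* in 56.5 and 35.5. *Zim1*, *Mirg* and *Igf2r* leaned the same way, and *Igf2as* and *Gnas* leaned to the paternal copy in F1, *Gnas* against the listed allele. *Taf1b*, the last of the 11, had 0.693 and 0.941 in F1 (adjusted p = 0.00732) and 0.911 and 0.821 from 90 and 56 votes in N2. The counting is not stated to use strand, so that reads of nested or antisense pairs (*H13* and *Mcts2*, *Blcap* and *Nnat*, *Igf2* and *Igf2as*, *Trappc9* and *Peg13*, *Kcnq1* and *Kcnq1ot1*) may be shared. At the vote limit itself, *Polr3c* and *Slc25a33* had 100 votes with an F1 mother and a BAF of 0.443 and 0.5, and 0.462 and 0.510. *Cadm3*, *Dcp2* and *Dpp3* fell just short with 0.436 and 0.360, 0.669 and 0.720, and 0.520 and 0.564.

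Genes called in F1 but not in N2, though tested in both, numbered 3. *Zc3hc1*, next to *Klhdc10*, leaned to the maternal copy by 0.0751 (SE 0.0154, adjusted p = 0.0414) in N2 and 0.0781 (SE 0.00755) in F1. *Id1*, an inhibitor of helix-loop-helix factors 48.3 kb from *Mcts2*, leaned to the paternal copy in both, with 0.502 and 0.569 in N2 and 0.480 and 0.577 in F1. *Srrm1* leaned to the maternal copy in F1, with 0.597 and 0.498, and to the paternal copy in N2, with 0.479 and 0.543, and the test of N2 against F1 called it.

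Genes near strongly imprinted genes were compared with the rest, with a distance chosen after the data had been seen. Without the genes of full or partial difference, 40 genes tested in both generations lay within 500 kb of 1 of 18 genes with a full difference in N2 or F1, and 6055 lay beyond. Near genes had a median absolute difference of 0.0496 in N2 and 0.0484 in F1, and the others 0.0219 and 0.0191. The sign was the same in N2 and F1 for 72.5% of near genes and 45.3% of the others, and Spearman's rho across genes was 0.709 near and -0.149 beyond. Near genes reached a Benjamini-Hochberg-adjusted p under 0.05 in 25% of cases in N2 and 22.5% in F1, against 0.826% and 1.06% of the others. Both generations called 7 of the 40 near genes and 5 of the 6055 others with the same sign. The 5 others were *Dio3* and *Trappc9*, both in the list of imprinted genes, and *Ghrh*, *Edn3* and *Cdh15*. *Ghrh* (chromosome 2, 157155233 to 157173242) lies near the partial gene *Blcap* (from 157382098), and both leaned to the maternal copy. Distance was taken to full genes only. Genes beyond 500 kb are therefore not all outside imprinted clusters. Within 200 kb, 11 of 14 genes kept their sign, and within 1000 kb 41 of 62.

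*Cox4i2*, a cytochrome c oxidase subunit gene 66.2 kb from *Mcts2*, was among these 7. It leaned to the paternal copy with 0.654 and 0.871 in N2 (difference -0.217, SE 0.0453, Benjamini-Hochberg-adjusted p = 0.00558) and 0.592 and 0.808 in F1 (difference -0.216, SE 0.0266). *Id1* beside it leaned the same way, opposite to *H13*. Next to *H19*, the fast skeletal muscle troponin genes *Tnnt3* and *Tnni2* leaned to the maternal copy by 0.104 (SE 0.0257) and 0.0825 (SE 0.0226) in N2, and by 0.0649 (SE 0.0183) and 0.0516 (SE 0.0194) in F1, where both missed the threshold. *Lsp1* between them did so by 0.0846 (SE 0.0282) in N2, short of the threshold, and by 0.0936 (SE 0.0133) in F1, past it. *Mrgpre*, beyond *Osbpl5*, had 0.652 and 0.369 in N2 but 0.544 and 0.473 in F1, where it missed the threshold. *Cox4i2*, *Tnnt3*, *Tnni2*, *Lsp1* and *Mrgpre* were named after their values had been seen.

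**Figure D4:**
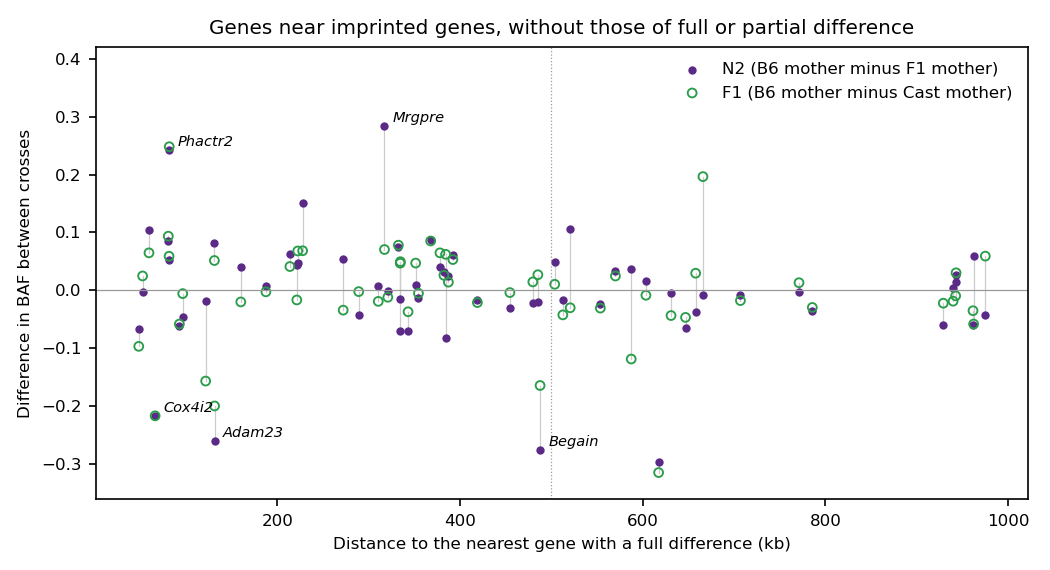
Difference in BAF between crosses in N2 (filled) and F1 (open) embryos against distance in kb to the nearest gene with a full difference, for genes without a full or partial difference; the grey lines join the values of a gene and the dotted line marks 500 kb. Phactr2, Cox4i2 and Adam23 lie close together in both generations, and Mrgpre does not.

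The backcross allows a further reading of imprinting, in total reads. Where the paternal copy is read, an embryo with a B6 mother reads Cast or B6 according to its genotype, while an embryo with an F1 mother always reads its father's B6 copy. In an edgeR fit of read counts on each gene's own genotype, with lanes as blocks, heterozygous and B6/B6 embryos differed at 1126 of 9733 genes where the mother was B6 (11.6%) and at 818 where the mother was F1 (8.40%), at a Benjamini-Hochberg-adjusted p under 0.01. Of the genes with a full difference in N2 or F1, 18 could be tested, counting *Snurf* and *Snrpn* once. Genotype was called at 5 of them in the cross where the Cast copy is the one read, and at none in the cross where it is silent. The median absolute log2 ratio was 0.237 in the first case and 0.0991 in the second, against 0.128 and 0.129 over all genes in the 2 crosses.

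The 5 genes, *Mest*, *Peg3*, *Ndn*, *Peg12* and *Igf2as*, were all read from the paternal copy. *Igf2as* had 91.6 ± 38.1 RPM (SD, n = 50) in heterozygous and 59.4 ± 24.2 RPM (n = 39) in B6/B6 embryos with a B6 mother, a log2 ratio of 0.78 (SE 0.112, adjusted p = 5.83e-09). With an F1 mother it had 71.1 ± 32.1 (n = 29) and 78 ± 29.9 RPM (n = 36), a log2 ratio of -0.04. *Peg12* had log2 ratios of 0.74 (SE 0.118) and -0.17 (SE 0.161), and *Ndn* beside it 0.64 (SE 0.158) and -0.23 (SE 0.200). *Peg3* was lower where Cast was read, at 17.9 ± 9.70 RPM (n = 35) against 30.5 ± 24.3 (n = 54), a log2 ratio of -0.74 (SE 0.152), and had -0.02 (SE 0.166) with an F1 mother. *Mest* had 0.32 (SE 0.0913) and 0.19 (SE 0.104). With no lane term, 2 of the 18 genes were called where Cast was read and again none where it was silent.

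The difference between the crosses was itself called at 2 of 9733 genes (0.0205%), *Igf2as* (adjusted p = 0.00971) and *Casp9*, while 481 genes had an unadjusted p under 0.05. It missed the threshold at *Peg12* (adjusted p = 0.0369), *Ndn* (0.416), *Peg3* (0.457) and *Mest* (0.996), and DESeq2 called no gene. *Igf2*, which overlaps *Igf2as* in antisense, had a log2 ratio of -0.34 (SE 0.151, adjusted p = 0.115) where the mother was B6 and -0.02 in the other cross. Genes leaning to the maternal copy differed among themselves. *Asb4* (log2 ratio 0.69, SE 0.182) and *H13* (0.29, SE 0.0749) were called with an F1 mother, where Cast is maternal, and not with a B6 mother (0.19 and -0.05). The difference between crosses was not called at either gene, with adjusted p of 0.996 and 0.287. *Trappc9* (-0.29, against -0.22 and an adjusted p of 0.0102 with a B6 mother) and *Ndufa12* (1.10, against -0.23) were also called with an F1 mother alone, and *Sf3b5* was called in both crosses (0.48 and 0.71). *Blcap*, *Klhdc10* and the full genes *H19*, *Cdkn1c*, *Meg3* and *Grb10* were called in neither.

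**Figure D5:**
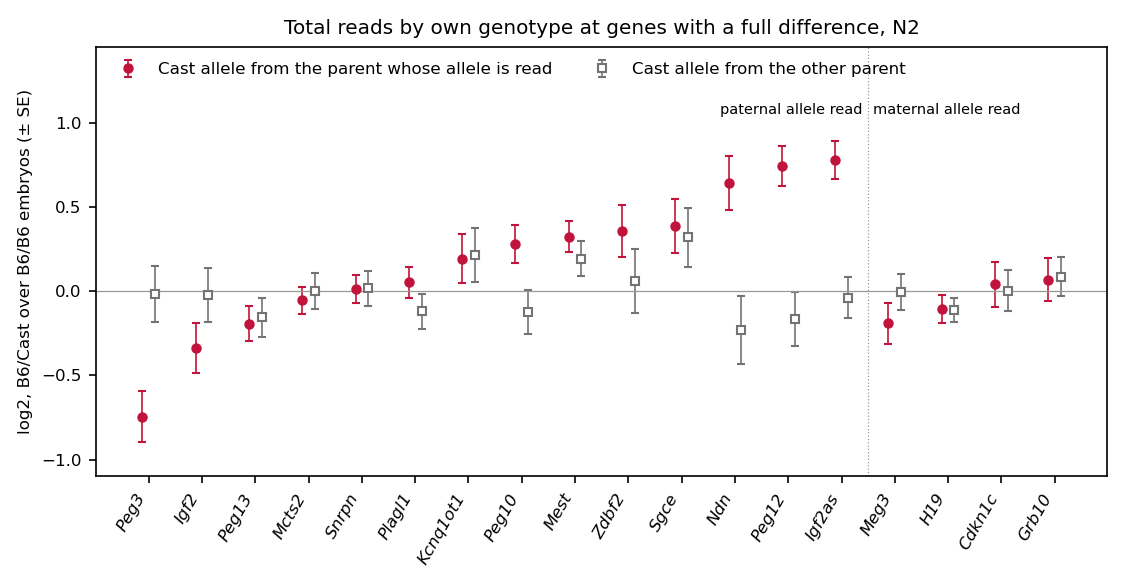
Log2 ratio of total reads in B6/Cast over B6/B6 embryos with its standard error at 18 genes with a full difference, in the cross in which Cast comes from the parent whose copy is read (filled red) and in the other cross (open grey). Igf2as, Peg12 and Ndn lie between 0.64 and 0.78 in the first and between -0.23 and -0.04 in the second.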

How the data were processed

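Read counts on exons per gene and allele votes were taken as deposited. The authors trimmed poly(A), mapped reads with Bowtie2 to mm9 and to a Cast genome built from SNPs, discarded reads with repeated hits and counted the rest. The deposited votes are estimated counts, since each SNP a read covers takes an equal part of 1 vote. Neither unit was scaled. The authors genotyped each embryo along its chromosomes with a hidden Markov model, and codes of 0.5 and 1 were read here as heterozygous and B6/B6, 48.1% and 51.3% of autosomal codes. A gene whose Cast copy is silent cannot show its own heterozygosity, so its code rests on neighbours. The 8 N2 embryos whose labels give no cross and 6 without genotypes were not used. Counts were divided by library totals to give RPM.

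Votes were compared with a quasi-binomial test over embryos (dispersion at least 1, at least 3 embryos and 100 votes per cross, Bonferroni-adjusted p under 0.01), N2 with F1 by the difference over its standard error, which makes p-values too small with 8 F1 embryos per cross, and read counts with edgeR 4.0.16 (quasi-likelihood, TMM, at least 5 RPM, Benjamini-Hochberg-adjusted p under 0.01), with DESeq2 1.42.0 as an alternative. Embryos of a litter share a mother, and p-values measure the spread between embryos. Named were all genes called in N2, genes called in F1 only, up to 15 with a called N2 against F1 difference, and list members not called that differed by at least 0.05, and some items are not reported here. The fits were tested on simulated data. Coordinates are those of GENCODE vM1 (mm9), in which 21317 of 22033 symbols were found. *Snurf*, *Kcnq1ot1* and *Peg13* were not, so *Trappc9* counts as far from a full gene. Members and lists were chosen with earlier results of these data known.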

Additional observations from a re-analysis of the deposited data

Results flagged for a closer look

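Among the F1 embryos of the named genes, 92 groups were searched for 1 embryo far from the others of its cross, and 12 had one, where chance flags about 1 in 20 groups. That rate is for independent groups, while these reuse the same embryos at every gene and some have nearly all values at 0 or 1. With a B6 mother, the lone embryo at *H19* and at *Meg3* was the same embryo. With a B6 mother the lone embryo had a BAF of 0.872 at *H19*, 0.968 at *Meg3*, 0.810 at *Blcap* and 0.326 at *Cry1*. With a Cast mother it had 0.0183 at *Meg3*, 0.999 at *Snurf*, 0.997 at *Peg3*, 0.651 at *Agrn*, 0.247 at *Zc3h11a*, 0.502 at *Nav1*, 0.274 at *AU040320* and 0.108 at *Tspan32*. At *H19*, *Meg3*, *Snurf*, *Peg3* and *Blcap* the lone embryo stayed on the side of its cross.

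The difference between crosses in N2 was itself different from that in F1 at 16 of the named genes, by the test of the 2 differences. N2 minus F1 was 0.554 at *Ndufa12*, 0.333 at *Eid2b*, 0.305 at *Cry1*, 0.298 at *AU040320*, 0.256 at *Ski*, 0.219 at *Zc3h11a*, 0.194 at *Pigy* and 0.166 at *Agrn*. It was -0.422 at *Mtif2*, -0.271 at *Lta4h*, -0.239 at *Irf2bp1*, -0.208 at *Tcf19*, -0.193 at *Nav1*, -0.179 at *Gdi2*, -0.162 at *Srrm1* and -0.0738 at *Ctdsp2*. None of these 16 genes is in the list of imprinted genes. Mean total reads in N2 with a B6 and an F1 mother were closest in proportion at *Eid2b*, with 9.28 ± 5.98 and 9.55 ± 4.35 RPM (SD). They were furthest apart in proportion at *Cry1*, with 7.18 ± 9.64 and 22.2 ± 20.6 RPM. The highest levels among these genes were 311 ± 94.4 and 354 ± 53.7 RPM, at *Ctdsp2*. The same comparison of levels was not made over all genes, so it cannot be read as particular to these. Levels were not tested between the crosses, which nearly coincide with lanes, and their part in the allele differences was not tested.

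The effect of an embryo's own genotype on total reads differed between the N2 crosses at *Casp9* by 1.07 and at *Igf2as* by 0.817 on the log2 scale, by the interaction term of the edgeR fit. *Casp9*, a caspase that starts apoptosis, was named after its values had been seen. It had 24.6 RPM in heterozygous and 9.01 RPM in B6/B6 embryos with a B6 mother, and 25.3 and 19.3 RPM with an F1 mother.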

How the results depend on the processing

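The number of genes called in N2, 32, became 83 at a Benjamini-Hochberg-adjusted p under 0.05, 164 with Fisher's exact test on pooled votes, and 19 and 20 in the first and second flow cell alone. Maternal calls, 12, became 43, 89 and, in the second flow cell, 7. Paternal calls, 20, became 40 and 75 with those tests, 10 and 13 in the flow cells, 13 with at least 500 votes per cross and 13 with embryos of at least 20 votes. The 36 F1 calls became 117 and 476 with those tests, and the 20 N2 against F1 differences became 231 at the Benjamini-Hochberg threshold. Calls of total reads by genotype fell from 1126 to 587 with a B6 mother and from 818 to 352 with an F1 mother when the lane was left out of the fit. The 2 differences between crosses became 20 with no RPM minimum, 1 with no scaling, 1 within 46 to 52 somites, and 0 with DESeq2 or with no lane term. The cause of these changes was not tested, apart from the fewer embryos or genes that some settings use.

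Litters as units kept 27 of the 32 genes. Leaving out the lane with both mothers, an alternative chosen after seeing the data, kept 29, without *Cdh15*, *Dio3* and *Tcf19*. No called direction reversed under the alternatives run. No paired analysis was possible because replicate numbers only name embryos. N2 depth limits the members: 11 genes called in F1 had fewer than 100 N2 votes on a side, and a minimum of 20 votes gave 42 calls in N2.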
